A study of Mus musculus with 12 samples.

Results

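Small nucleolar RNAs (snoRNAs) were followed in mouse haematopoietic cells transformed by AML1-ETO, with and without a 4-hydroxytamoxifen (4-OHT) treatment that excises Tet2. The members were all array rows whose only annotated gene symbol was a numbered Snora or Snord symbol. Each row was kept whatever its signal, and the row with the highest mean over the 12 arrays stood for a gene with several rows. This gave 73 snoRNAs of 22180 genes measured, 47 of the box C/D type (Snord) and 26 of the box H/ACA type (Snora). A further 43 rows list a snoRNA together with another gene and are not members.

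Box C/D and box H/ACA snoRNAs are short nuclear RNAs that base-pair with ribosomal RNA. Box C/D snoRNAs guide 2′-O-methylation by fibrillarin, which works in a particle with Nop56, Nop58 and Snu13. Box H/ACA snoRNAs guide the conversion of uridine to pseudouridine by dyskerin (Dkc1), which works with Gar1, Nhp2 and Nop10. A few members have other roles: U8 (Snord118) and U17 (Snora73a and Snora73b) act in the cleavage of precursor ribosomal RNA, and Snord13 guides the acetylation of a cytidine in the small subunit RNA. Most mammalian snoRNAs lie in introns of a host gene, are cut out of its spliced intron and are trimmed by exonucleases. AML1-ETO, the fusion protein of leukaemia with a translocation between the RUNX1 and RUNX1T1 genes, has been reported to raise box C/D snoRNA particles in leukaemic self-renewal. Every sample here carried AML1-ETO, so no comparison bears on that report.

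Kit-enriched bone marrow cells of Tet2fl/fl;CreER mice received the retrovirus MigR1-AE-IRES-GFP, which carries AML1-ETO and GFP, were replated in methylcellulose for 3 rounds and were then grown in suspension with SCF, IL-3 and IL-6. CreER is a Cre recombinase activated by 4-OHT. Tet2-/- cells had been given 4-OHT at 200 nM and Tet2fl/fl cells ethanol, for 2 passages (4 days), and RNA was taken at passage 2 (p2) and passage 10 (p10). GFP+, CD11b-, Gr1-, CD16/32+ cells were sorted, and 100 ng of total RNA of each sample was labelled for a GeneChip Mouse Gene ST 2.0 array. There were 3 arrays in each of 4 groups: Tet2fl/fl p2, Tet2-/- p2, Tet2fl/fl p10 and Tet2-/- p10. Effects of 4-OHT, of active Cre and of Tet2 loss cannot be told apart in this design. Whether the 3 replicates of a group were grown apart is not in the labels, and the p-values below reflect only the variation between these samples, which may be technical.

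Values are the authors' log2 array signals, so a difference of 1 is a 2-fold difference. Over all rows the median of an array was 5.57 to 5.68, and correlations within a group were 0.984 to 0.991. Tet2 read 9.64 to 9.98 on the 6 Tet2-/- arrays and 9.80 to 10.08 on the 6 Tet2fl/fl arrays, and its single value, a summary over the gene, does not check the excision. All 9 listed immature myeloid markers were measured, and their mean lay between 9.66 and 10.92 on every array. The mean of 6 lymphoid markers was 5.68 to 5.90. Among them Nkg7 was high, at 11.28 to 11.87, while Cd3e, Cd3g, Cd79a, Cd79b and Ms4a1 read between 3.48 and 5.77. The mean of 9 mast cell and basophil markers was lower on every Tet2-/- array (10.88 to 11.42) than on every Tet2fl/fl array (11.60 to 11.89). Itgam, which encodes CD11b, averaged 8.01 to 8.20 by group in cells sorted for lack of that protein. In such bulk samples a lower signal from fewer cells of a type and from less RNA per cell cannot be told apart.

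A probe set inside an intron cannot tell a mature snoRNA from the unspliced host transcript. Signals of different probe sets are not comparable as amounts, so levels are compared only between arrays of the same snoRNA. Mean signals of the box C/D members ran from 3.61 (Snord1b) and 3.69 (Snord90) to 10.55 (Snord104) and 11.57 (Snord82) and those of the box H/ACA members from 5.13 (Snora19) and 5.60 (Snora35) to 10.12 (Snora21) and 11.32 (Snora33). A filter at the 30th percentile of all rows (log2 4.70) was passed by 66 of the 73 members, namely 40 of 47 box C/D and 26 of 26 box H/ACA. The 7 below it (Snord1b, Snord19, Snord61, Snord90, Snord91a, Snord92 and Snord111) stayed in every count below.

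The snoRNAs varied more between replicate arrays than most genes did. The pooled SD within groups had a median of 0.346 over the box C/D members and 0.302 over the box H/ACA members, against 0.153 over all genes, and 71 of 73 members lay above that all-gene median. The widest box H/ACA spreads were those of Snora74a (0.883), Snora16a (0.836) and Snora62 (0.705), the widest box C/D spreads those of Snord99 (0.828), Snord35a (0.796) and Snord73b (0.735), and the narrowest of all that of Snora61 (0.0821). Snora16a, Snora61 and Snord99 lie in the same host, Snhg12, a long non-coding RNA gene.

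The members also moved together between replicates. Snora74a, for example, read 8.96, 6.74 and 7.28 in Tet2fl/fl p2, 8.60, 8.68 and 7.79 in Tet2-/- p2, 8.84, 7.01 and 7.22 in Tet2fl/fl p10 and 8.64, 7.47 and 7.29 in Tet2-/- p10. Its replicate 1 stood far above the others in 3 of the 4 groups. Over the 2628 pairs of members, the deviations from the group means on the 12 arrays correlated with a median r of 0.49, and 85.9% of pairs were positive. Members share arrays and some share a host or near-identical sequence, so these values are a description. Snora73a and Snora73b, which are close copies, correlated at 0.997 and may share probes.

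Each snoRNA was set against its own mean over the 12 arrays, and the median of these deviations was taken per array. For box C/D the array medians were 0.13, -0.15 and 0.02 in Tet2fl/fl p2 (replicates 1, 2 and 3), 0.40, 0.32 and 0.30 in Tet2-/- p2, 0.18, -0.45 and -0.50 in Tet2fl/fl p10, and 0.16, -0.29 and -0.28 in Tet2-/- p10. For box H/ACA they were 0.15, -0.27 and -0.18 in Tet2fl/fl p2, 0.32, 0.39 and 0.19 in Tet2-/- p2, 0.30, -0.55 and -0.30 in Tet2fl/fl p10, and 0.16, -0.05 and -0.19 in Tet2-/- p10. The same medians over all 22180 genes stayed between -0.03 and 0.04. All 3 Tet2-/- p2 arrays were high, while in each p10 group replicate 1 was high and the others low. Replicate 1 was the highest array of its group for 62 members (84.9%) in Tet2fl/fl p10 and for 63 (86.3%) in Tet2-/- p10, against 30% and 27.7% of all genes. In Tet2fl/fl p2 it was the highest for 41 members and in Tet2-/- p2 for 24.

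**Figure D1:**
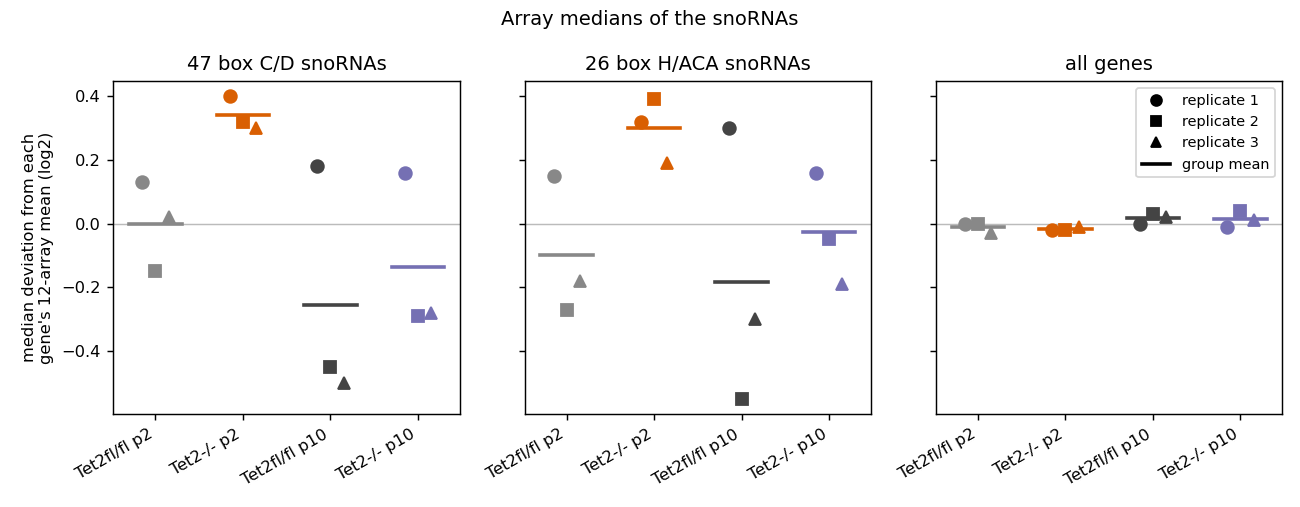
Median deviation of the snoRNAs from their own 12-array means (log2, y axis) on each array, by group (x axis), for box C/D, box H/ACA and all genes; symbols give the replicate number and bars the group means. The 3 Tet2-/- p2 arrays lie between 0.19 and 0.40 in both box types, replicate 1 stands above the others in both p10 groups, and all genes stay near 0.

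**Figure D2:**
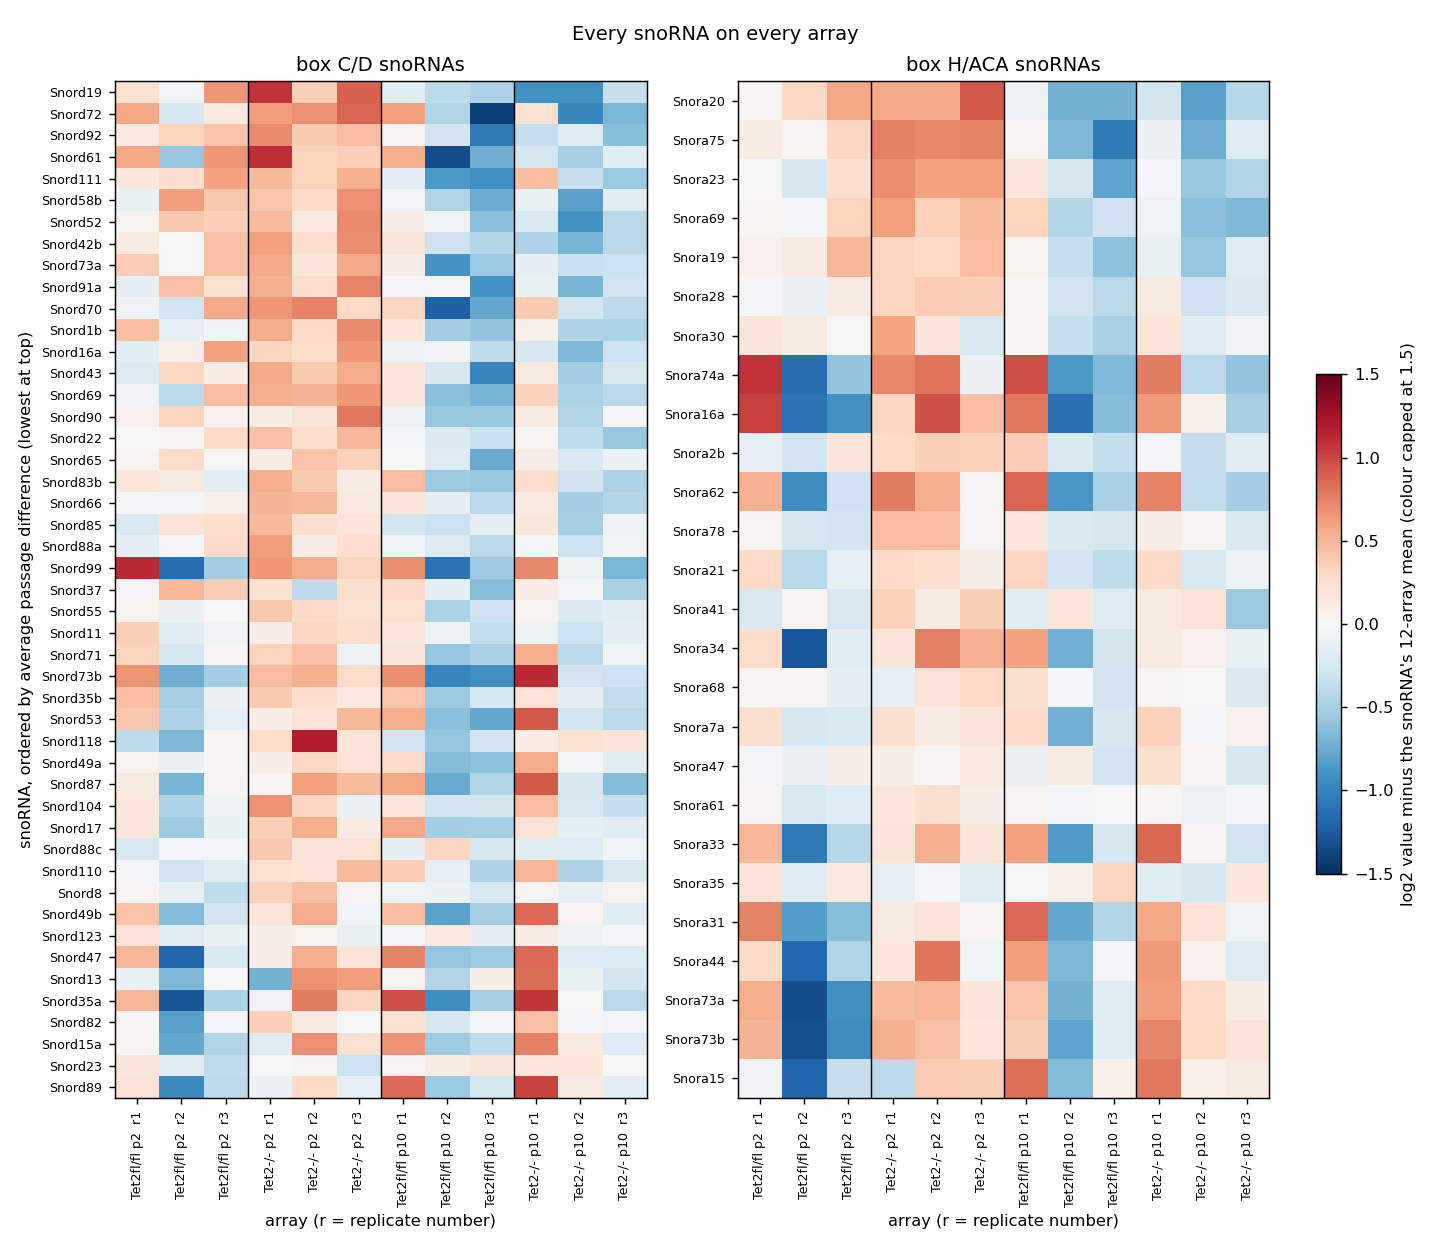
Every snoRNA (rows, ordered by average passage difference) on every array (columns), as the log2 value minus that snoRNA's 12-array mean, with colour capped at 1.5. The upper rows are low at p10, and the lower rows, such as Snora73a, Snora44 and Snord35a, follow the array more than the group, with Tet2fl/fl p2 replicate 2 lowest.

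Other short structured RNAs on the array were examined after the snoRNA values had been seen. Of these 14 rows, Rny3, a Y RNA transcribed by RNA polymerase III outside any snoRNA host, ran from 7.06 on Tet2fl/fl p2 replicate 2 to 9.46 on Tet2fl/fl p2 replicate 1, within the same group. Scarna6, a guide RNA of the Cajal body, spanned 2.17 and Rnu3a (U3, a box C/D RNA with another symbol) 1.40, while the abundant Rn7sk spanned 0.14. Rn7sk read 13.23 to 13.38, near the highest value of all rows (13.6), and whether its signal could still vary there was not tested. Rny3, Scarna6, Rnu3a and Rn7sk were picked as references from the 14 rows after the values had been seen. Correlations with the other rows are not given here. Within groups, the members' deviations correlated with those of Rny3 at a median r of 0.56 (61 of 73 positive), with those of Scarna6 at 0.64 and with those of Rnu3a at 0.58. The median over all other genes was -0.05 for Rny3, and over the members it was 0.03 for Rn7sk. Snora44 (0.96), Snora33 (0.94) and Snord47 (0.92) followed Rny3 most closely and Snord88c (-0.68) ran against it. The part of this shared movement in the group differences below was not tested.

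The first comparison asked how Tet2-/- cells differed from Tet2fl/fl cells at p2. The Tet2-/- mean was higher for 71 of 73 snoRNAs, all but Snord37 and Snora35, where 48.6% of all genes had a higher mean. The median difference was 0.36 for box C/D and 0.42 for box H/ACA, against 0 over all genes. No member passed limma's test at an adjusted p of 0.05 (0 of 73, with 0.00451% of all genes called), nor with the replicate number as a block (0.0676% of all genes called). At an unadjusted p of 0.05, 14 members were higher and 0 lower, where 3.7% of all genes were higher. All 3 Tet2-/- arrays lay above all 3 Tet2fl/fl arrays for 17 members (10 box C/D, 7 box H/ACA), where this held for 6.37% of all genes. The members are not independent of each other, as the correlations above show, so these counts carry fewer independent observations than members.

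Among the members whose p2 groups did not overlap, Snord118, Snora23, Snora75, Snord72 and Snord69 had the largest differences, and none of them passed the test. Snora75, hosted by the nucleolin gene Ncl, read 8.39, 8.32 and 8.60 in Tet2fl/fl and 9.04, 9.0 and 9.02 in Tet2-/- cells. The Tet2-/- values were nearly equal and all above the others, a difference of 0.58 ± 0.23 (SE, limma adjusted p = 0.512). Snora23, hosted by the importin gene Ipo7, read 9.33, 9.09 and 9.59 against 10.03, 9.94 and 9.95, a difference of 0.64 ± 0.22 (adjusted p = 0.443). Snord72, hosted by Rpl37, read 6.17, 5.34 and 5.74 against 6.22, 6.27 and 6.46. The highest Tet2fl/fl array lay just under the lowest Tet2-/- array. Snord69, hosted by the nucleostemin gene Gnl3, read 7.49, 7.13 and 8.0 against 8.08, 8.05 and 8.19.

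At p10 the members' medians lay nearer 0. The Tet2-/- mean was higher for 54 of 73 members (48.4% of all genes), with medians of 0.12 for box C/D and 0.11 for box H/ACA. No member passed limma's test (0 of 73, with 0.144% of all genes called; also 0 with the block, against 0.523%), and 1 member, Snord118, was higher at an unadjusted p of 0.05, where 3.99% of all genes were. Snord118 was also the single member whose p10 groups did not overlap, where 6.17% of all genes had higher, non-overlapping Tet2-/- values. Both medians moved with every p10 array. Without Tet2-/- p10 replicate 1 they were -0.05 and -0.04, and without Tet2fl/fl p10 replicate 1 they were 0.33 and 0.36. Without Tet2fl/fl p10 replicate 2 they were 0.04 and -0.01, and without its replicate 3 they were 0.02 and -0.02. Without Tet2-/- p10 replicate 2 they were 0.22 and 0.21, and without its replicate 3 they were 0.19 and 0.22.

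The snoRNAs with these other roles included the member nearest to a call. Snord118 (U8), needed for the ends of the large subunit RNAs and transcribed from its own gene, read 6.98, 6.70 and 7.39 in Tet2fl/fl p2 and 7.65, 8.55 and 7.56 in Tet2-/- p2. At p10 it read 7.07, 6.79 and 7.08 in Tet2fl/fl and 7.48, 7.60 and 7.58 in Tet2-/- cells. The 6 Tet2-/- arrays lay above the 6 Tet2fl/fl arrays, a separation shown by 0.523% of all genes in this direction. The genotype difference averaged over both passages was 0.73 ± 0.17 (SE), a 1.66-fold higher signal, with a limma adjusted p of 0.0681, and 0.0569 with the block. The difference was 0.90 at p2 and 0.57 at p10, and the p2 value was 0.58 without Tet2-/- p2 replicate 2, the highest array.

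Snora73a (U17), a box H/ACA RNA for early cleavage, read 10.50, 8.62 and 9.04 in Tet2fl/fl p2, 10.43, 10.45 and 10.13 in Tet2-/- p2, 10.38, 9.24 and 9.77 in Tet2fl/fl p10 and 10.58, 10.24 and 10.07 in Tet2-/- p10. Its near copy Snora73b followed it array by array, from 8.63 to 10.68. In both, replicate 1 of the Tet2fl/fl groups was as high as the Tet2-/- arrays, and the groups overlapped at each passage. The average genotype difference was 0.73 ± 0.29 for Snora73a (limma adjusted p = 0.291, and 0.0939 with the block) and 0.78 ± 0.29 for Snora73b (0.256, and 0.0593 with the block). Snord13, the acetylation guide, read 6.31, 5.74 and 6.40 in Tet2fl/fl p2 and 5.70, 7.10 and 7.04 in Tet2-/- p2. It read 6.46, 5.97 and 6.50 in Tet2fl/fl p10 and 7.25, 6.31 and 6.13 in Tet2-/- p10. No order of the groups was seen for Snord13, with the lowest and the highest value both in Tet2-/- cells, and its average genotype difference was 0.36 ± 0.27 (limma adjusted p = 0.629).

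**Figure D3:**
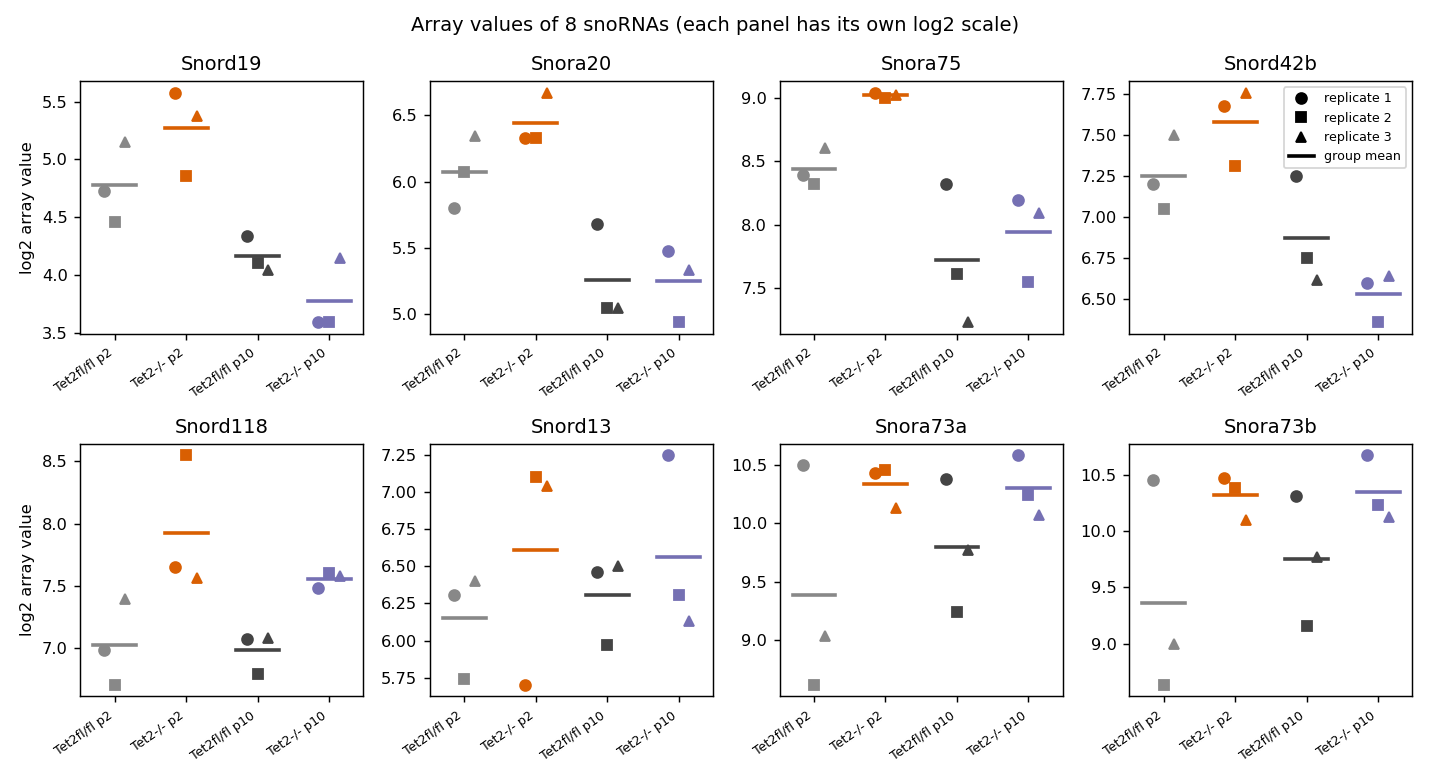
Log2 array values of 8 snoRNAs by group, each panel on its own scale, with symbols for the replicate number and bars for group means. Snord19, Snora20 and Snora75 are low in both p10 groups, Snord118 is higher on all 6 Tet2-/- arrays, and Snora73a and Snora73b follow the replicate as much as the group.

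Averaged over both passages, the Tet2-/- mean was higher for 69 of 73 members (48.7% of all genes), with medians of 0.25 for box C/D (0.14 without Tet2-/- p10 replicate 1) and 0.29 for box H/ACA. No member passed limma's test (0 of 73, with 0.983% of all genes called; 0 with the block, against 2.9%), and 7 were higher at an unadjusted p of 0.05, where 5.73% of all genes were. After Snord118 the nearest was Snord8, at 0.28 ± 0.09 (adjusted p = 0.195, and 0.0964 with the block). Without Tet2fl/fl p2 replicate 1, 1 member was called, and without replicate 1 of all 4 groups 5 were. Shares of all genes called in these reduced fits are not given here. The signal of Kit, the receptor of the SCF in the medium, fell by 0.82 in the same comparison (limma adjusted p = 0.027), and that of the mast cell tryptase Tpsab1 fell by 1.43 (adjusted p = 0.015). These were the genes called there, 1 in each of 2 lists (1 and 3 with the block). The first list held 9 genes of the sort gate and other surface markers, and the second 9 mast cell and basophil markers. With the block, 1 of 9 immature myeloid markers and 1 of 13 genes of ribosomal RNA synthesis were also called lower. Kit was used to enrich the bone marrow cells and was not part of the sort gate. The median difference of the mast cell and basophil markers was -0.30. The part of these changes in the snoRNA values was not tested.

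Averaged over both genotypes, 15 snoRNAs fell from p2 to p10 and none rose. The average difference, p10 minus p2, was below 0 for 58 of 73 members, while 61.3% of all genes lay above 0. The median was -0.30 for box C/D and -0.13 for box H/ACA, against 0.04 over all genes. The box H/ACA median was -0.03 without Tet2fl/fl p2 replicate 1 and -0.23 without Tet2fl/fl p10 replicate 1. By limma's test 15 members were lower and 0 higher, 10 of 47 box C/D and 5 of 26 box H/ACA, where 2.56% of all genes were called lower. With the block 20 members were lower, against 4.45% of all genes. The 15 called without the block were all among those 20.

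Snord19 and Snora20 fell most. Snord19, hosted by Gnl3, read 4.73, 4.46 and 5.15 in Tet2fl/fl p2, 5.58, 4.86 and 5.38 in Tet2-/- p2, 4.34, 4.10 and 4.04 in Tet2fl/fl p10 and 3.59, 3.59 and 4.15 in Tet2-/- p10. Every p10 array was below every p2 array, and the average difference was -1.06 ± 0.16 (SE), 2.08-fold lower, with an adjusted p of 0.0133. Its mean signal of 4.50 lies below the 30th percentile of all rows, near the low end of the signals. Snora20, hosted by the chaperonin gene Tcp1, read 5.80, 6.07 and 6.34 in Tet2fl/fl p2, 6.33, 6.33 and 6.67 in Tet2-/- p2, 5.68, 5.05 and 5.05 in Tet2fl/fl p10 and 5.48, 4.94 and 5.33 in Tet2-/- p10. It was 2-fold lower at p10 (-1.0 ± 0.14, adjusted p = 0.0133), again with no overlap between passages.

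Snora75 in Ncl read 8.39, 8.32 and 8.60 and then 9.04, 9.0 and 9.02 at p2, and 8.32, 7.61, 7.23, 8.19, 7.55 and 8.09 at p10. It fell by 0.90 ± 0.16 (adjusted p = 0.0204), and its highest p10 array matched its lowest p2 array to 2 decimals. Snord92, hosted by the ribosome biogenesis gene Wdr43, fell by 0.83 (adjusted p = 0.023), from 4.52 to 5.08 at p2 to 3.31 to 4.41 at p10. Snora19, hosted by Eif3a, fell by 0.59 (adjusted p = 0.0292). These 5 were the members with non-overlapping lower values at p10, a pattern of 1.76% of all genes. Snord42b, hosted by Rpl23a, fell by 0.71 ± 0.13 (adjusted p = 0.0189), with 7.05 to 7.76 at p2 and 6.36 to 7.25 at p10. The remaining 9 (Snord22, Snord73a, Snord52, Snord58b, Snord111, Snord16a, Snora23, Snora69 and Snord91a) had differences of -0.79 to -0.50 and adjusted p-values of 0.0286 to 0.0468.

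How many members passed changed with the arrays left out. The share of all genes called with each array left out is not given here, so these changes need not be particular to the snoRNAs. Only 2 members were called when 1 of these 4 arrays was left out: Tet2-/- p2 replicate 1 or replicate 3, Tet2-/- p10 replicate 2, or Tet2fl/fl p2 replicate 3. Without Tet2fl/fl p10 replicate 3, replicate 2 or Tet2-/- p10 replicate 3 the counts were 5, 6 and 7, without Tet2fl/fl p2 replicate 2 it was 8, and without Tet2fl/fl p10 replicate 1 it was 26. Snord19 and Snora20 stayed called without any single array (highest adjusted p 0.0409 and 0.04). Without a whole replicate number, which leaves 8 arrays, no member was called.

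The 15 snoRNAs called lower with passage are described here without a test, since a call itself depends on the spread within groups. Their correlation with Rny3 within groups had a median of 0.21 (-0.33 to 0.56), against 0.63 over the other 58 members. Their pooled SD had a median of 0.308, against 0.361 over the others. In Tet2fl/fl p2, replicate 1 was the highest array for 0 of these 15 and for 41 of the other 58. Over all 73 members the average passage difference correlated with the member's r with Rny3 at 0.51, and with its mean signal at 0.56, as descriptions over members that share all arrays. Of the 9 members with a mean signal below 5.16, the lower bound when all genes are split into 3 equal parts, 5 were called lower, where 0.379% of all genes below it were. Of the 34 members above the upper bound of 7.54, 4 were called lower, where 5.34% of genes above it were.

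In Tet2fl/fl cells alone the passage medians were -0.26 for box C/D and 0.02 for box H/ACA, while 58.5% of all genes had a positive difference. No member passed limma's test, where 0% of all genes did, nor with the block, and 10 members were lower at an unadjusted p of 0.05 (3.85% of all genes were). Lower values without overlap were seen for 9 members, against 5.85% of all genes. Snord111, hosted by the splicing factor gene Sf3b3, read 4.81, 4.92 and 5.26 at p2 and 4.50, 3.79 and 3.73 at p10 in these cells, a difference of -0.99 ± 0.25 (adjusted p = 0.461). Snora20 (-0.81 ± 0.20) and Snord92 (-0.74 ± 0.23) came next, both with an adjusted p of 0.461. The box H/ACA median was -0.24 without Tet2fl/fl p10 replicate 1, -0.19 and -0.04 without Tet2fl/fl p2 replicate 2 and 3, and 0.11 to 0.16 when 1 of the other 3 arrays was left out. Leaving out replicate 1, 2 or 3 of the p10 group gave box C/D medians of -0.47, -0.15 and -0.10.

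In Tet2-/- cells the passage medians were -0.41 for box C/D and -0.28 for box H/ACA, and 66 of 73 members were below 0, while 59.4% of all genes lay above it. The box H/ACA median was -0.43 without Tet2-/- p10 replicate 1. By limma's test 4 members fell, where 0.591% of all genes were called lower, and 30 had lower values without overlap, against 10.6% of all genes. Snord19 fell by 1.5 ± 0.22 (2.83-fold, adjusted p = 0.0309), Snora20 by 1.19 ± 0.20 (adjusted p = 0.0368), Snord42b by 1.05 ± 0.18 (adjusted p = 0.0368) and Snord22, hosted by Snhg1, by 0.71 ± 0.15 (adjusted p = 0.0498). With the block 13 members fell, against 2.65% of all genes, and Snora75, Snora23, Snora69, Snord16a, Snord52, Snord92, Snord66, Snord1b and Snord73a joined these 4. Without any 1 of Tet2-/- p2 replicates 1 and 3 or the 3 Tet2-/- p10 arrays, and when the 6 arrays of this comparison were fitted alone, 0 members were called. Without Tet2-/- p2 replicate 2 or Tet2fl/fl p2 replicate 2 the count was 1, without Tet2fl/fl p2 replicate 1 it was 2, and without Tet2fl/fl p10 replicate 3 it was 7. How many of all genes were called in these reduced fits is not given here. Both passage comparisons and both genotype comparisons use the same groups of arrays, so the Tet2-/- p2 values enter this fall and the genotype difference at p2.

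The interaction, the genotype difference at p10 minus that at p2, tests whether both genotypes changed alike over the passages. Its median was -0.27 for box C/D and -0.37 for box H/ACA (49.5% of all genes were above 0), but no member passed limma's test, where 0% of all genes did, with or without the block. At an unadjusted p of 0.05, 6 members were lower, against 1.56% of all genes. The lowest was Snord19 (-0.88 ± 0.31, adjusted p = 0.999), followed by Snora34 at -0.71 and Snora23 at -0.69. The highest were Snord111 (0.39), Snord37 (0.28) and Snord49a (0.23). Without Tet2fl/fl p10 replicate 1 the medians were -0.02 and -0.07. A difference between genotypes in the passage effect, or between passages in the genotype effect, was therefore not shown, and neither was one between box types, which was not tested.

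**Figure D4:**
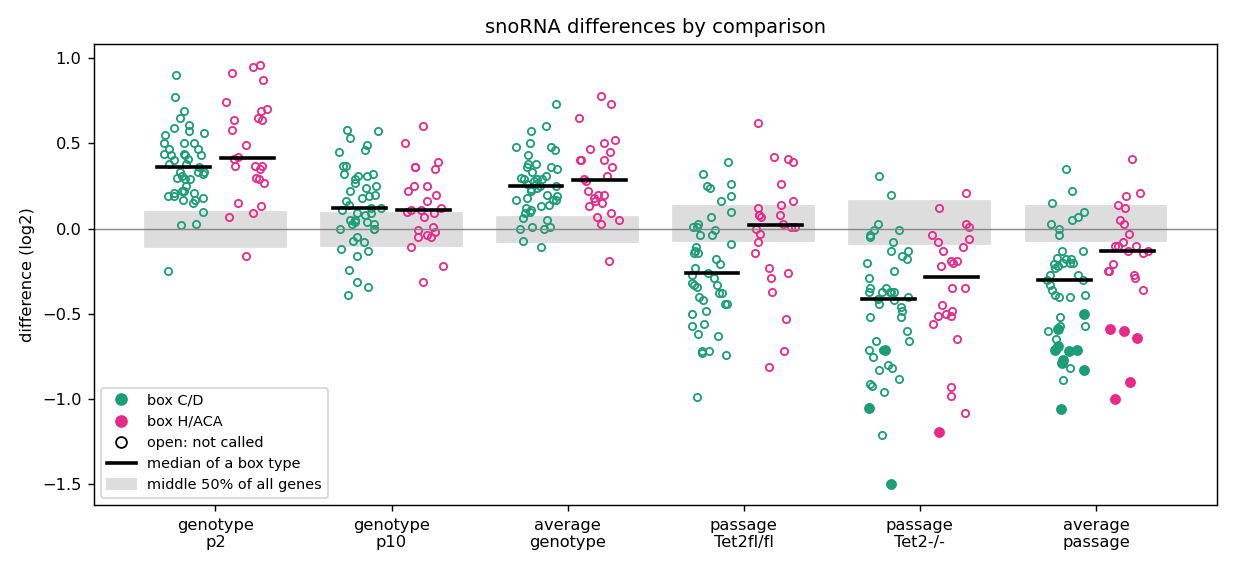
Differences (log2, y axis) of the 73 snoRNAs in 6 comparisons (x axis), 1 point a snoRNA, filled where called by limma, with black bars at the median of each box type and grey bands for the middle 50% of all genes. Nearly all points are above 0 for genotype at p2 without a call, and the filled points lie in the Tet2-/- passage comparison (4) and the average passage comparison (15), all below 0.

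The host genes were taken as the genes that contain a snoRNA by position in the RefSeq gene table of assembly GRCm38.p6. That table gives no strand, so a containing gene can lie on the opposite strand. Exactly 1 gene contained 64 of the members, several contained 6, and none contained Snord118, Snord13 and Snord89. For 55 members that gene was measured, which gave 55 pairs with 41 host genes. At p2, member and host had the same sign of genotype difference in 47 of 55 pairs, all 47 higher in Tet2-/- cells. Most members and most hosts were higher there, against 48.6% of all genes. A count of this size can then arise without any link between a snoRNA and its own host. The hosts' median difference was 0.13 and that of their snoRNAs 0.37, and the snoRNA had the larger difference in 45 pairs. No host passed limma's test there, where 0.00451% of all genes did.

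For the average passage comparison 36 of 55 pairs had the same sign, 32 of them lower in both, and the differences correlated at r = 0.13 over the pairs, which share arrays and some hosts. By limma's test 10 of the 41 hosts fell and 1 rose, where 2.56% and 1.81% of all genes did. In 2 of the 55 pairs both the snoRNA and its host fell: Snord19 in Gnl3 (host -0.44 ± 0.08, adjusted p = 0.0189) and Snora75 in Ncl (host -0.26 ± 0.06, adjusted p = 0.0417). The second snoRNA of each host did not pass, at -0.57 for Snord69 in Gnl3 and 0.10 for Snord82 in Ncl. Tcp1, which hosts Snora20, was at -0.18 ± 0.06 (adjusted p = 0.0902), and Rpl23a, which hosts Snord42b, at 0.00 ± 0.06.

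Several hosts fell while their snoRNAs did not pass the test. Snhg3 fell by 0.48 ± 0.07 (adjusted p = 0.0142), and Snora73a and Snora73b inside it were at 0.19 ± 0.29 and 0.21 ± 0.29. Snhg12 fell by 0.41 ± 0.09 (adjusted p = 0.0361), and its 4 snoRNAs (Snora16a, Snora44, Snora61 and Snord99) were not called. Nop58, which itself encodes a core protein of box C/D particles, fell by 0.53 ± 0.09 (adjusted p = 0.0181), and its Snord11 (-0.27) and Snord70 (-0.65) were not called. Rbmx fell by 0.67 ± 0.13 (adjusted p = 0.0243), and its Snord61 was at -0.82 without a call. A missing call is thus no sign that a snoRNA stayed level, since the snoRNAs vary more between replicates. The non-coding gene 2410006H16Rik rose by 0.35 ± 0.08 (adjusted p = 0.0326), while its Snord49a, Snord49b and Snord65 were at -0.20, -0.04 and -0.40 without a call. Differences between a snoRNA and its own host were not tested. Within groups the deviations of a member and its host correlated with a median r of 0.17 over the 55 pairs.

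**Figure D5:**
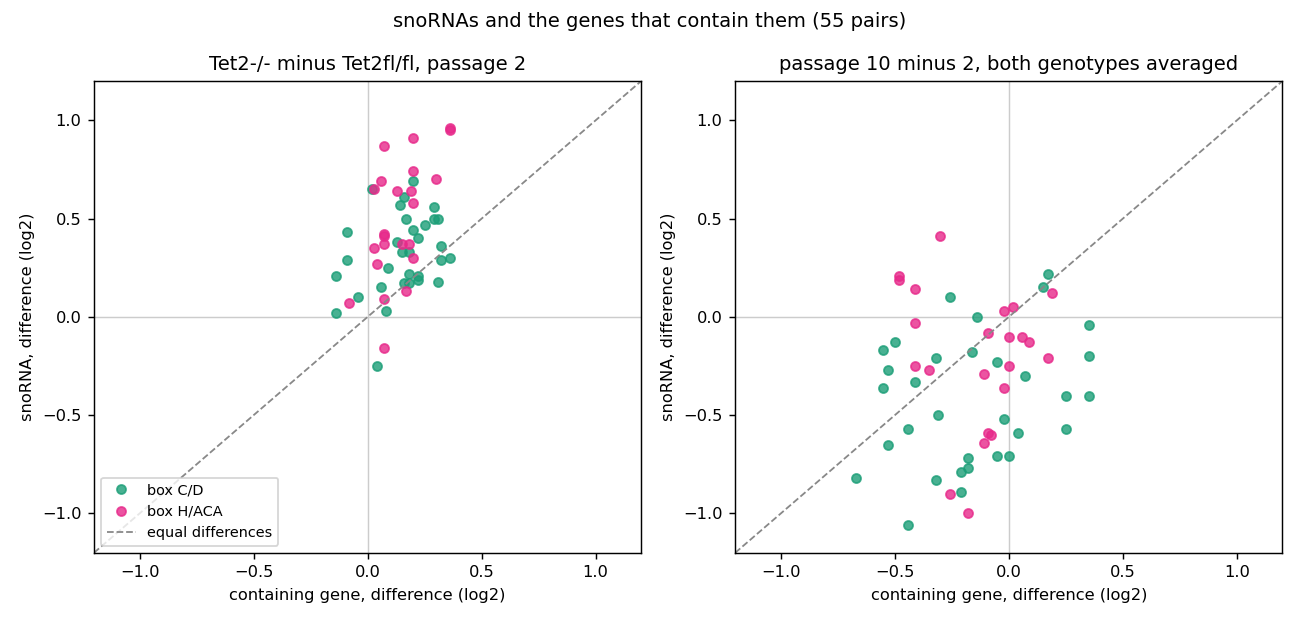
Difference of each snoRNA (y axis, log2) against that of the gene that contains it (x axis, log2) for 55 pairs, for genotype at p2 and for average passage; the dashed line marks equal differences. At p2 47 pairs lie in the upper right, mostly above the line, and for average passage 32 lie in the lower left with little order along the line (r = 0.13).

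By the kind of containing gene, the genotype median at p2 was 0.43 for the 15 members in long non-coding RNA genes, 0.32 for the 18 in ribosomal protein genes and 0.37 for the 31 in other protein-coding genes. The average passage medians of these classes were -0.20, -0.26 and -0.30, with 2, 5 and 7 members called lower, where 2.56% of all genes were. Of the 6 members that several genes contain, 1 was called lower, and their medians were 0.46 for genotype at p2 and -0.17 for average passage. Snord118, Snord13 and Snord89, which no gene contains, had average passage differences of -0.20, 0.05 and 0.35 and none was called.

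The proteins of the snoRNA particles were read from lists chosen with earlier results of these data known, and each count stands against 2.56% of all genes called lower for average passage. Of the core box C/D proteins Nop56, Nop58 and Snu13 were measured as single genes, and all 3 fell with passage on average: Nop56 by 0.50 ± 0.09 (adjusted p = 0.0198), Nop58 by 0.53 ± 0.09 (adjusted p = 0.0181) and Snu13 by 0.32 ± 0.06 (adjusted p = 0.0222). Nop56 read 10.12 to 10.66 at p2 and 9.70 to 10.09 at p10. Of the core box H/ACA proteins 0 of 4 passed: Dkc1 was at -0.33 ± 0.10 (adjusted p = 0.0834), Nhp2 at -0.42 ± 0.12 (adjusted p = 0.0699, and 0.027 with the block), Nop10 at -0.16 and Gar1 at -0.13. Among 15 of 16 assembly factors Shq1, a chaperone of dyskerin, fell by 0.40 and Nolc1, a nucleolar phosphoprotein that binds both particle types, by 0.42. Among 11 of 13 nucleases and cofactors of end trimming Exosc3, Dis3 and Mtrex fell, by 0.35, 0.41 and 0.25. Among 13 of 14 genes of ribosomal RNA synthesis Polr1b fell by 0.45 and Myc, a transcription factor that drives it, by 0.41. The median of these 13 was -0.07, with 10 below 0 and 3 above it, up to 0.27. None of these lists had a member called between genotypes at p2 or p10, with or without the block. For average genotype none was called without the block. With it, 1 of the 13 genes of ribosomal RNA synthesis was called lower, where 2.9% of all genes were called in either direction.

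Of 9 markers of maturing neutrophils, 1 fell with passage on average, where 2.56% of all genes did, and 3 fell with the block (4.45% of all genes). Their mean ran from 7.46 to 8.92 in Tet2fl/fl p2, 7.49 to 8.25 in Tet2-/- p2, 6.09 to 7.92 in Tet2fl/fl p10 and 6.36 to 7.22 in Tet2-/- p10. The ranges overlapped between passages. Ngp, a granule protein, fell by 1.81 ± 0.40 (adjusted p = 0.0337, and 0.0122 with the block). S100a8 was at -2.15 ± 0.63 (adjusted p = 0.0771, and 0.0114 with the block) and S100a9, its partner in calprotectin, at -1.24 ± 0.49 (0.167, and 0.0266 with the block). The part of these markers in the snoRNA differences was not tested.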

How the data were processed

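The deposited values are the authors' log2 signals of 12 arrays, made with RMA in Affymetrix Power Tools per the submitters' processing notes (versions and genome build not given in the sources used here). RMA scales arrays to 1 distribution, so a change shared by all RNAs cannot be seen. Of 41345 rows, 23521 had 1 annotated symbol, 1814 several and 16010 none. Names of 23328 rows were updated through the RefSeq gene table of GRCm38.p6. The row with the highest mean stood for each of 22180 genes, with no filter on low values, since the members are kept whatever their signal. Both rows of Snora19 are identical.

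With limma 3.58.1, all genes on the 12 arrays were fitted with group means in R 4.3.3 (8 residual and 3.67 prior degrees of freedom). P-values are two-sided and adjusted over all genes by Benjamini and Hochberg, with 0.05 as the threshold, and "called" means past it. Values after ± are standard errors. Average comparisons take the mean of both passages or both genotypes. Members, lists and comparisons were chosen with earlier results of these data known.

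Named were called members and, otherwise, up to 5 (genotype) or 3 (passage, interaction) with the largest differences, in genotype and passage comparisons among those without overlap, plus Snord118, Snord13, Snora73a and Snora73b. Arrays with the same replicate number deviated together over all genes (r of 0.148 to 0.43 in 18 pairs; -0.302 to 0.0518 in 36 pairs with other numbers), so the fit with the number as a block stands beside the results. On simulated data for the average passage comparison, with 200 of 22180 genes changed 2-fold, 96% were recovered with 12 false calls. The simulated noise was independent between genes, and the changed genes were picked at random. These rates do not carry over to the snoRNAs, which vary more (median pooled SD 0.346 and 0.302 against 0.153) and move together. Alternatives were filters at the 30th and 50th percentile, other scalings, variance models, array weights, the mean of a gene's rows, fewer arrays and each array left out. Leaving out a replicate number was added after the data were seen.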

Additional observations from a re-analysis of the deposited data

How the results depend on the processing

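With 4 snoRNAs called for passage in Tet2-/- cells, the replicate block or array weights gave 13, trend and robust variance 9, a filter at the 30th or 50th percentile or quantile normalization 8, fitting the 6 arrays of that comparison alone 0, and leaving out an array or a replicate number 0 to 7. The median of box C/D there ran from -0.69 (without replicate number 1) to -0.33. For average passage the 15 calls were 10 to 20 under other settings and 0 to 26 with arrays left out, with 0 without any 1 replicate number. For average genotype the 0 calls became 1 with the filter at the 50th percentile or array weights (Snord118, adjusted p = 0.0444 and 0.0378) and 0 to 5 with arrays left out. The Snord118 difference ran from 0.43 to 0.93 with arrays left out, and its limma adjusted p reached 0.155 without a single array. Shares of all genes called under these settings are not given here, so the changed counts need not be particular to the snoRNAs. The interaction medians ran from -0.45 to -0.02 (box C/D) and -0.51 to -0.07 (box H/ACA). Snord13 at p10 turned to -0.09 without Tet2-/- p10 replicate 1 and -0.02 without replicate number 1, and the interaction of Snord37 to -0.09 without replicate number 2 (ranges -0.09 to 0.57 and -0.09 to 0.64). The cause of these changes was not tested. The counts of 0 called for both genotype comparisons, passage in Tet2fl/fl cells and the interaction were 0 under every setting run. For the snoRNAs, the replicate block changed no other count of calls by more than 1.5 times. For members alone, same-numbered arrays correlated at -0.537 to 0.845 and arrays with other numbers at -0.768 to 0.571. Of the 18 same-numbered pairs 8 exceeded 0.1 over the members, where all 18 did over all genes. The number of arrays and, for 7 members, a signal below the 30th percentile limit what these data can show.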

Other observations

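The rows that list a snoRNA together with another gene, which were no members, hold 28 distinct sets of values among 43 rows, 16 of them identical Snord116 rows. Their median deviations per array were 0.02, -0.12 and -0.06 in Tet2fl/fl p2, 0.29, 0.40 and 0.25 in Tet2-/- p2, 0.18, -0.30 and -0.38 in Tet2fl/fl p10 and 0.11, -0.27 and -0.14 in Tet2-/- p10. As for the members, all 3 Tet2-/- p2 arrays were high and replicate 1 was the highest in both p10 groups. These rows were not tested.

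Of the 14 other short RNAs, 13 had a higher Tet2-/- mean at p2 (48.6% of all genes did), with a median difference of 0.27. At an unadjusted p of 0.05, 2 were higher there, where 3.7% of all genes were. None was called by limma in any comparison, but at p2 only 0.00451% of all genes were called. For average passage 2.56% of all genes were called lower and 1.81% higher. The average passage median of the 14 was -0.03, with 8 of 14 below 0, while 61.3% of all genes lay above 0. Terc, the telomerase RNA, which has a box H/ACA domain, read 12.21 to 12.71 over the 12 arrays. Across the 73 members the genotype difference at p2 correlated with the member's pooled SD at r = 0.65 and with its r with Rny3 at 0.52, as descriptions over members that share all arrays.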
